A study of Homo sapiens with 9 samples.

Results

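The cytosolic ribosomal protein genes encode the protein components of the cytosolic ribosome. The class was chosen with earlier results of these data known. Its 50 genes were then taken by symbol, as the genes named RPL or RPS with a number and, where present, a letter or the ending of a paralog, without pseudogenes. They are 50 of the 14778 named genes on the arrays, 32 of them coding for the large subunit and 18 for the small subunit. RefSeq holds 86 protein-coding genes that match the same rule, and the others were not analysed here. They include the stalk proteins RPLP0, RPLP1 and RPLP2 and the small subunit protein RPSA. Among the 50 genes, 7 are paralogs of another ribosomal protein gene: RPL3L, RPL7L1, RPL10L, RPL22L1, RPL26L1, RPL39L and RPS27L.

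A ribosome joins a small subunit, which reads the messenger RNA, and a large subunit, which forms the peptide bonds. Each subunit is built in the nucleolus and the cytoplasm from ribosomal RNA and from proteins that are mostly needed in equal numbers, and growing cells spend a large part of their transcription and translation on these parts. The mRNAs of ribosomal proteins start with a run of pyrimidines, the terminal oligopyrimidine (TOP) tract, through which mTOR signalling controls their translation, and MYC is known to raise the transcription of many genes needed to build ribosomes. In myeloid cells, proliferating precursors hold many ribosomes, and their number falls as the cells mature.

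The cells were HL-60 clone 15, a subclone of an established human promyelocytic leukaemia line that serves as an eosinophil precursor model. They carried lentiviral constructs whose expression is switched on by 4-hydroxytamoxifen (4-OHT), the active metabolite of tamoxifen. The 9 arrays fall into 3 groups of 3: cells with the RhoH construct and no 4-OHT (called uninduced RhoH below), cells with the RhoH construct and 100 nM 4-OHT (induced RhoH), and cells with a GFP construct and 100 nM 4-OHT (GFP). RhoH is a GTPase-related protein of blood cells and GFP a fluorescent control protein. The replicates are called biological in the series' design text. GFP cells that had not received 4-OHT were not analysed here, so the construct and the 4-OHT cannot be told apart in the difference between uninduced RhoH and GFP. The 2 comparisons with GFP share the GFP arrays.

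Each value is a log2 signal from a whole-transcript array, normalised with RMA by the authors, and a difference of 1 on this scale is 2-fold. The median signal of an array lay between 5.43 and 5.55. Within a group, pairs of arrays correlated across genes with r from 0.995 to 0.996 in GFP, from 0.980 to 0.995 in uninduced RhoH and from 0.974 to 0.983 in induced RhoH, so the GFP arrays were the most alike. RHOH itself, the gene of the construct, had its highest signal on the arrays labelled GFP: 5.21 ± 0.06 in uninduced RhoH, 5.59 ± 0.14 in induced RhoH and 5.93 ± 0.02 in GFP (mean ± SD, n = 3 each). It was higher in induced than in uninduced RhoH (log2 difference 0.38, limma adjusted p = 0.0451) and lower in uninduced RhoH than in GFP (-0.72, adjusted p = 0.00042). The first of these calls held in 7 of 19 alternative settings, with adjusted p up to 0.192, and was lost without any 1 array other than induced RhoH replicate 3; the second held in all 19. Whether its probe set covers the sequence of the construct is not given in the sources used here, so every direction below is drawn between arrays as they are labelled. The promyelocyte granule genes MPO, PRTN3, AZU1, CTSG and LYZ were among the brightest genes on all arrays, while the T cell genes CD2 and CD5, the B cell gene PAX5 and the platelet gene GP9 had mean signals between percentiles 34.5 and 48.7. The erythroid factor KLF1 was at percentile 59.7 and was higher in uninduced RhoH than in GFP (0.53, adjusted p = 0.046), and its part in the results below was not tested. Of the 8 granule genes listed, 5 were measured and 4 of these were higher in both RhoH groups than in GFP. The log2 of their summed signal was 14.87 to 14.91 in uninduced RhoH, 14.54 to 14.78 in induced RhoH and 13.73 to 13.79 in GFP, and its part in the differences of the ribosomal protein genes was not tested.

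The ribosomal protein genes were bright as a class. Their mean signal over the 9 arrays ran from 4.01 to 12.95 with a median of 8.49, and 30 of the 50 lay in the brightest 25% of all named genes, above 8.06. The brightest were RPL41 (12.95), which codes for the smallest protein of the large subunit, RPS28 (12.88) and RPL19 (12.53), and 7 of the 50 genes were above percentile 99. The dimmest were RPL10L (4.01), RPL39L (4.74) and RPS27L (5.83), 3 paralogs. Signals of different probe sets are not a scale of mRNA amount, since probes differ in how well they bind, so these figures rank probe sets and not genes.

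The sequences around the annotated start sites were searched for pyrimidine runs such as the TOP tract. RefSeq promoters (GRCh38.p14, the first start listed for each gene) were found for 45 of the 50 genes. In the windows below, which run from 15 bases before the start to 15 bases after it, 5′ to 3′ on the gene's strand, capitals mark the longest run of C and T. The first 8 genes are those with a difference of at least 0.5 between uninduced RhoH and GFP, the last 2 are genes with differences near 0, and RPS27 is set beside its paralog RPS27L.
RPS26, chr12:56041903-56041932, plus strand: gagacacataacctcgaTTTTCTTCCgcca
RPL36, chr19:5690280-5690309, plus strand: ccgcgcggcgccagCCCTTCCgccacggcc
RPL12, chr9:127451392-127451421, minus strand: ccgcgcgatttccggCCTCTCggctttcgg
RPL39, chrX:119791616-119791645, minus strand: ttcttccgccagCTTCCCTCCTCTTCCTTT
RPS15, chr19:1438381-1438410, plus strand: tgcgcaggcgcggaccaaagcgaTCTCTTC
RPS21, chr20:62387088-62387117, plus strand: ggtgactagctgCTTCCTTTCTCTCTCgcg
RPL35, chr9:124861943-124861972, minus strand: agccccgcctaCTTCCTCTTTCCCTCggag
RPL22, chr1:6199581-6199610, minus strand: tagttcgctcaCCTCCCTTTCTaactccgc
RPS27, chr1:153990747-153990776, plus strand: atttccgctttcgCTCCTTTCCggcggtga
RPS27L, chr15:63157463-63157492, minus strand: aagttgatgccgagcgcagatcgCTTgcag
RPL28, chr19:55385917-55385946, plus strand: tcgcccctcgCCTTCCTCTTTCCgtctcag
RPS29, chr14:49598696-49598725, minus strand: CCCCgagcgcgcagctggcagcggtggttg
The start used by these cells was not measured. In RPS15 and RPS26 the run begins some bases after the annotated start. In RPL17 and RPL19, which are not shown, a run of 11 bases lies wholly before the annotated start, and the count below includes both.

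A run of at least 8 C or T in this window of 30 bases was present in 33 of the 45 genes (73.3%), against 3647 of all 27305 promoters (13.4%). It was present in 32 of the 40 genes that are not paralogs (80%) and in 1 of the 5 paralogs with an entry, RPL22L1, whose window reads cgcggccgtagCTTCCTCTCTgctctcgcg. The hexamer CGGAAG, the core bound by transcription factors of the ETS family, was searched on both strands from 250 bases before to 50 bases after the start, and 28 of the 45 genes held it (62.2%), against 19.9% of all promoters and 26.5% of the promoters of the genes tested here. The GCCATC core of YY1 was found in 24.4% of the 45, 13% of all promoters and 13.4% of those of tested genes, and the TATAAA box in 8.89%, 12% and 8.51%. A match of this kind describes the letters only and is no evidence of a bound factor. The 100 bases before the start of RPS14 and RPL39 are shown as examples that hold the hexamer 3 times and 2 times, in capitals in either orientation; RPS18 and RPS6 also held it 2 times there.
RPS14, chr5:150449740-150449839, minus strand: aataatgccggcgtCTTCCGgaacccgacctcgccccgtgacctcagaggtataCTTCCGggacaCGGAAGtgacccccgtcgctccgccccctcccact
RPL39, chrX:119791631-119791730, minus strand: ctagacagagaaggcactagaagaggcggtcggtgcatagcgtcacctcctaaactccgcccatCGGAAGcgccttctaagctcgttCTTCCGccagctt
Among the 23 genes with a promoter entry that were higher in uninduced RhoH than in GFP, as described next, 17 held the hexamer (73.9%) and 18 the pyrimidine run (78.3%), against 11 (50%) and 15 (68.2%) of the other 22. All 5 paralogs with an entry are among these 22, and 2 of the 5 held the hexamer and 1 the run. The contrast between the 23 and the 22 was not tested.

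Ribosomal protein genes were higher in uninduced RhoH than in GFP. Of the 50 genes, 24 passed the test (limma, Benjamini-Hochberg adjusted p under 0.05 over the 14778 genes) and all 24 were higher in uninduced RhoH, which is 48.0% of the class. Of all named genes, 6.01% were called higher and 9.27% lower in this comparison, and of the brightest 25% of named genes 13.3% were called higher. The median difference of the class was 0.29, or 1.22-fold, with an interquartile range of 0.26 to 0.38. The median of all named genes was 0.05. The difference was above 0 in 48 of the 50 genes, against 59.8% of all named genes, and in 43 of them the 3 uninduced RhoH arrays were all above the 3 GFP arrays, against 19.2% of all named genes. No gene of the class reached 2-fold in any comparison. In total RNA from a whole culture, fewer cells with a transcript and less of it per cell cannot be told apart. The number called depended on single libraries: it was between 7 and 32 when 1 array was left out, at 7 without GFP replicate 1 or GFP replicate 2 and at 9 without GFP replicate 3 or uninduced RhoH replicate 3, and none was called lower in any of these fits.

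**Figure D1:**
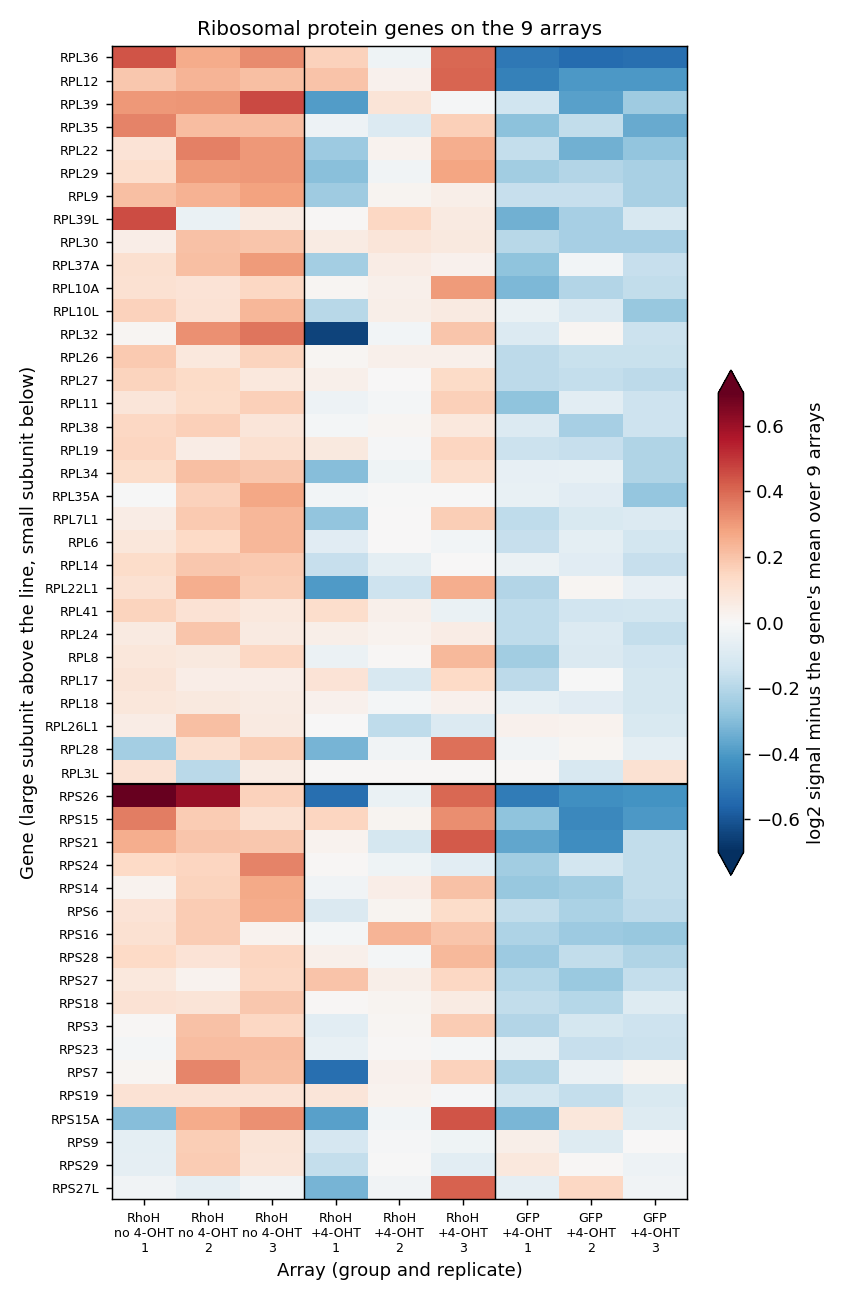
Each row is 1 of the 50 ribosomal protein genes and each column 1 of the 9 arrays; colour gives the log2 signal minus the gene's mean over the 9 arrays. The GFP columns are below the mean in most rows and the uninduced RhoH columns above it, while induced RhoH replicate 1 is low in RPL32, RPS7, RPS26 and RPL39.

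In the small subunit 10 of 18 genes were called, and in the large subunit 14 of 32. RPS26, a protein at the channel where the messenger RNA leaves the ribosome and a gene mutated in Diamond-Blackfan anaemia, had the largest difference. Its signal was 7.85, 7.73 and 7.28 in uninduced RhoH, 6.59, 7.07 and 7.52 in induced RhoH and 6.63, 6.69 and 6.70 in GFP. All uninduced RhoH arrays were above the GFP arrays, while the induced RhoH arrays overlapped both other groups and spread over nearly the whole range. The difference between uninduced RhoH and GFP was 0.95 ± 0.22 (SE), or 1.93-fold (adjusted p = 0.014), and the call was lost without uninduced RhoH replicate 1 or 2 or GFP replicate 1 or 2, with adjusted p up to 0.0564.

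RPL36, a large subunit protein, had signals of 10.97, 10.79 and 10.86 in uninduced RhoH, 10.69, 10.50 and 10.93 in induced RhoH and 10.03, 9.99 and 10.00 in GFP. Both RhoH groups lay clear of the GFP arrays and overlapped each other. Uninduced RhoH exceeded GFP by 0.87 ± 0.11 (SE), or 1.83-fold (adjusted p = 0.000511). RPL12, which sits at the base of the stalk where translation factors bind, showed the same arrangement: 12.16, 12.21 and 12.18 in uninduced RhoH, 12.17, 12 and 12.38 in induced RhoH, and 11.50, 11.57 and 11.57 in GFP. Its difference between uninduced RhoH and GFP was 0.63 ± 0.10 (SE), or 1.55-fold (adjusted p = 0.00186). RPS15, a protein of the head of the small subunit, had signals of 11.87, 11.69 and 11.62, then 11.66, 11.53 and 11.84, then 11.23, 11.06 and 11.11 in the same order of groups. The GFP arrays were again below all others, and uninduced RhoH exceeded GFP by 0.60 ± 0.11 (SE), or 1.51-fold (adjusted p = 0.00415). RPL36, RPL12 and RPS15 passed the test between uninduced RhoH and GFP under every one of the 19 alternative settings.

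RPL39, which lines the tunnel through which the new peptide leaves, was arranged differently. Its signals were 8.80, 8.81 and 8.96 in uninduced RhoH, 8.11, 8.59 and 8.49 in induced RhoH and 8.36, 8.12 and 8.25 in GFP. The uninduced RhoH arrays stood above all 6 others, and the induced RhoH arrays overlapped GFP. The difference between uninduced RhoH and GFP was 0.61 ± 0.13 (SE), or 1.53-fold (adjusted p = 0.00996), and it was called in 18 of the 19 alternatives, all except the one without GFP replicate 2 (adjusted p = 0.0533). RPS21 (0.54, adjusted p = 0.0233), RPL35 (0.53, 0.00406), a protein at the exit of that tunnel, and RPL22 (0.51, 0.0266) were also higher by at least 0.5. RPS21 lost its call in 7 of the 19 alternatives, 5 of which leave out 1 array, and RPL22 in 6, also 5 of which leave out 1 array.

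The other genes called in this comparison differed by 0.27 to 0.46. They were RPL29, RPL9, RPS24, RPS14, RPS6, RPL30, RPS16, RPS28, RPL10A, RPL26, RPL27, RPS27, RPL38, RPS18, RPL19 and RPL6. RPS6, the ribosomal protein that the S6 kinases phosphorylate, had signals of 8.83, 8.91 and 8.99 in uninduced RhoH, 8.63, 8.75 and 8.86 in induced RhoH and 8.56, 8.51 and 8.55 in GFP. The uninduced RhoH and GFP arrays did not overlap, and the difference was 0.37 ± 0.09 (SE) (adjusted p = 0.0168). RPS14, whose loss is a feature of the 5q- myelodysplastic syndrome, ran from 8.94 to 9.18 in uninduced RhoH and from 8.65 to 8.74 in GFP, a difference of 0.38 (adjusted p = 0.0226). RPL6 (0.27, 0.0442) and RPL29 (0.46, 0.0433) were the called genes with the highest adjusted p.

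RPS19, RPL11 and RPL41 were among the genes just outside the threshold. So were RPL24 and RPL37A (adjusted p = 0.0534 each) and RPL14 (0.0555). RPS19, the gene most often mutated in Diamond-Blackfan anaemia, read 12.38 on each of the 3 uninduced RhoH arrays and 12.15, 12.11 and 12.17 in GFP, with no overlap and a difference of 0.24 (adjusted p = 0.0576). RPL11, a ribosomal protein that can bind the p53 regulator MDM2, read 10.23, 10.27 and 10.31 against 9.86, 10.07 and 10.00, a difference of 0.29 (adjusted p = 0.0582). RPL41 differed by 0.26 (adjusted p = 0.0549). After another quantile normalization of the deposited values, RPL41 differed by 0.05, and RPS28, RPL19 and RPS27, 3 genes called in the main test, differed by 0.16, 0.13 and 0.17 and were no longer called; all 4 are among the brightest of the class.

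**Figure D2:**
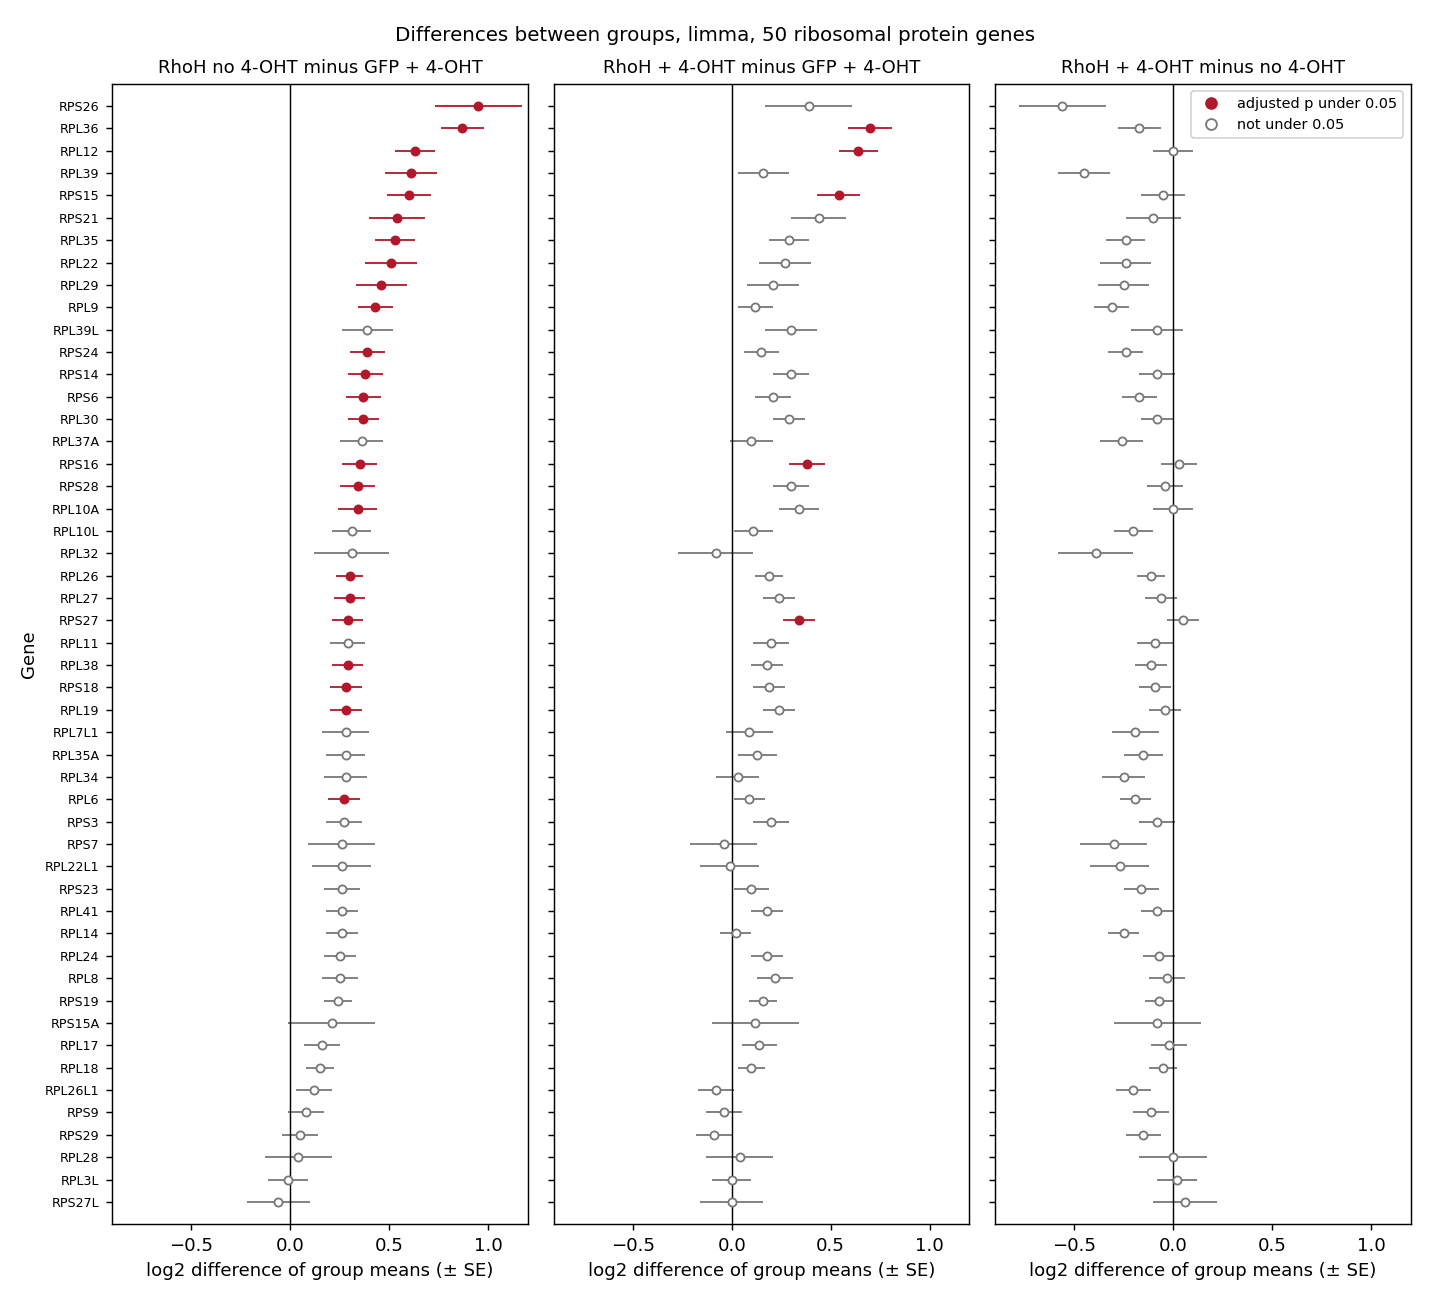
Each point is the log2 difference of 2 group means for 1 ribosomal protein gene, with its standard error from limma; filled points have an adjusted p under 0.05. Uninduced RhoH minus GFP has 24 filled points, all above 0, induced RhoH minus GFP has 5 and induced minus uninduced RhoH has none.

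Some genes of the class were nearly level. The difference between uninduced RhoH and GFP was under 0.1 in size for 5 genes: RPS9 (0.08), RPS29 (0.05), RPL28 (0.04), RPL3L (-0.01) and RPS27L (-0.06). RPL3L, the counterpart of RPL3 known from striated muscle, read 6.48, 6.19 and 6.44 in uninduced RhoH, 6.39 on each induced RhoH array and 6.39, 6.27 and 6.49 in GFP, so the groups overlapped throughout. RPS27L, a paralog known as a p53 target, read 5.80, 5.76 and 5.80, then 5.50, 5.80 and 6.24, then 5.76, 5.97 and 5.80 in the same order of groups. These groups also overlapped, with the widest spread in induced RhoH.

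None of the 7 paralogs was called in any comparison, whereas 24 of the 43 other genes were called between uninduced RhoH and GFP. The paralogs include the 3 dimmest genes of the class, and the difference between the 7 and the 43 was not tested. Parent genes were measured for 4 of them. RPS27 differed by 0.29 (adjusted p = 0.0407) and RPS27L by -0.06 (0.861). RPL22 differed by 0.51 (0.0266) and RPL22L1 by 0.26 (0.317). RPL26 differed by 0.30 (0.0198) and RPL26L1 by 0.12 (0.431). RPL39 and RPL39L, at 0.61 and 0.39, were the pair of which both differed by more than 0.3, and the 3 uninduced RhoH arrays of RPL39L (5.20, 4.70 and 4.80) were above its GFP arrays (4.41, 4.51 and 4.63) with an adjusted p of 0.076. RPL10L (0.31, 0.0739) and RPL7L1 (0.28, 0.154) did not pass the test either.

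Calls were counted separately in brighter and dimmer genes. Ranked by their mean over the 9 arrays, 16 of the 25 brighter genes were called and 8 of the 25 dimmer ones, with medians of 0.30 and 0.27. All 25 brighter genes had their uninduced RhoH arrays above their GFP arrays, against 18 of the dimmer genes. The medians of both sets were thus close, and the arrays overlapped in 7 of the dimmer genes; the difference between the sets was not tested.

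**Figure D3:**
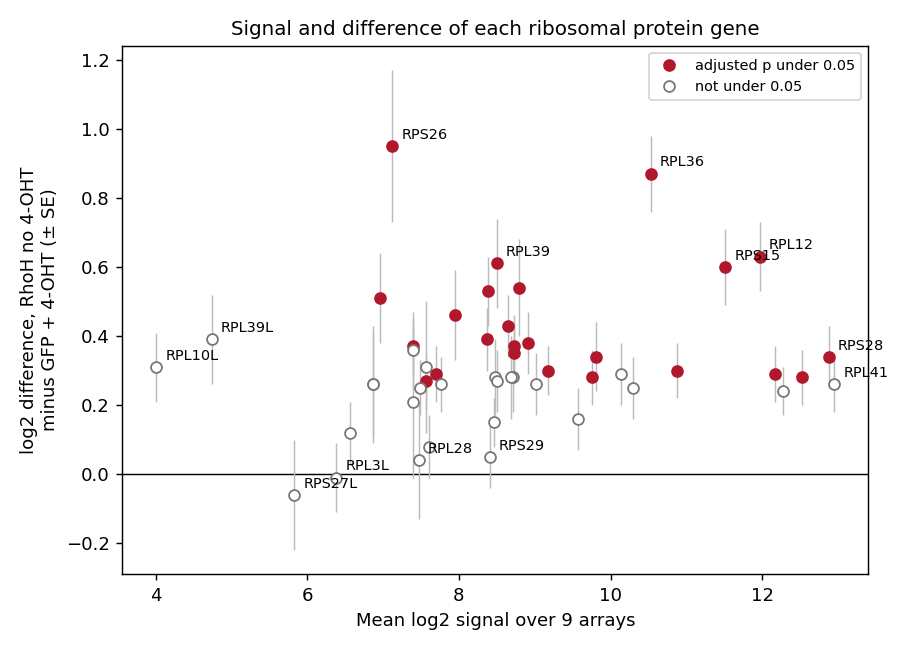
Each point is 1 ribosomal protein gene, with its mean log2 signal over the 9 arrays on the x axis and the log2 difference between uninduced RhoH and GFP, with its standard error, on the y axis. Called genes (filled) lie between 0.27 and 0.95 across most of the range of signal. The paralogs RPL3L and RPS27L lie near 0, while the dimmer paralogs RPL10L and RPL39L lie at 0.31 and 0.39 and were not called.

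With 4-OHT in both, the RhoH cells were higher in fewer genes. Between induced RhoH and GFP, 5 of the 50 genes were called higher (10.0%) and none lower, where 1.74% of all named genes, and 3.57% of the brightest 25%, were called higher and 2.75% of all named genes lower. At an unadjusted p under 0.05, 22 of the 50 were higher and 0 lower, against 1157 higher and 1262 lower of the 14778 named genes. The median difference was 0.18, or 1.14-fold, against 0.03 for all named genes, and 44 of the 50 genes were above 0, against 57.8% of all named genes. In 27 genes the 3 induced RhoH arrays were above the 3 GFP arrays, against 11.1% of all named genes. The number called was between 2 and 6 when 1 array was left out, at 2 without any 1 of the 3 GFP arrays.

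The 5 genes were RPL36, RPL12, RPS15, RPS16 and RPS27, each of which was also called between uninduced RhoH and GFP. With the array values given above, induced RhoH exceeded GFP by 0.70 ± 0.11 in RPL36 (SE, adjusted p = 0.00667), by 0.64 ± 0.10 in RPL12 (0.00628) and by 0.54 ± 0.11 in RPS15 (0.0202). RPL36 and RPL12 kept their calls under all 19 alternatives, and RPS15 lost it without any 1 of the 3 GFP arrays (adjusted p up to 0.105). RPS16 read 8.84, 8.91 and 8.76 in uninduced RhoH, 8.72, 8.97 and 8.93 in induced RhoH and 8.52, 8.48 and 8.47 in GFP. Its GFP arrays were below all others, and induced RhoH exceeded GFP by 0.38 (adjusted p = 0.0462). RPS27, a zinc-binding protein of the small subunit, read 12.24, 12.19 and 12.31, then 12.37, 12.21 and 12.31, then 11.97, 11.91 and 12. The difference between induced RhoH and GFP was 0.34 (adjusted p = 0.0484), and the calls of RPS16 and RPS27 were lost in 10 and 13 of the 19 alternatives, among them those without any 1 GFP array. All 5 genes were among the 25 brighter genes of the class, where 20 had their induced RhoH arrays above GFP, against 7 of the 25 dimmer genes.

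The lowest differences between induced RhoH and GFP were those of RPS29 (-0.09), RPL32 and RPL26L1 (-0.08 each). RPL32 read 7.58, 7.89 and 7.94 in uninduced RhoH, 6.92, 7.55 and 7.76 in induced RhoH and 7.47, 7.58 and 7.42 in GFP. The single low array, induced RhoH replicate 1, set the sign, and without it the difference was 0.16 (adjusted p = 0.579).

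**Figure D4:**
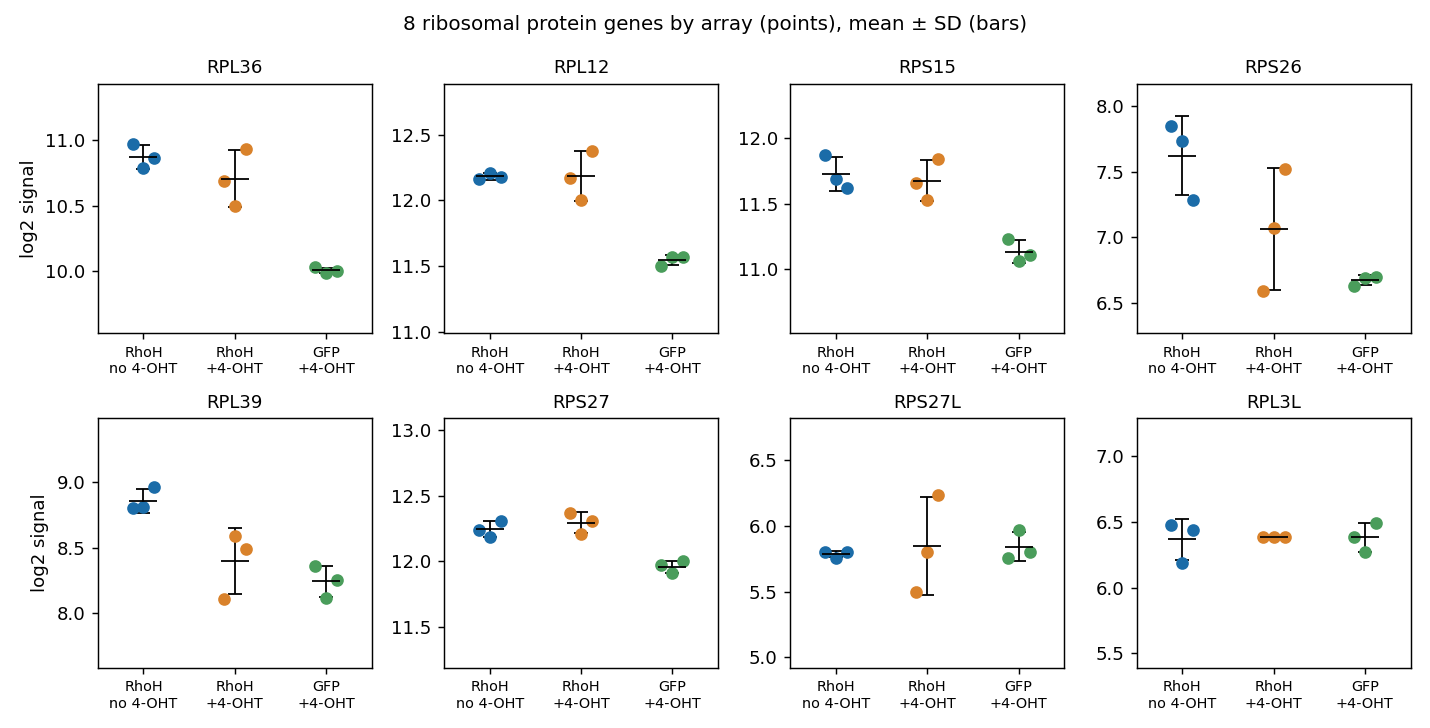
Points are the log2 signals of 8 ribosomal protein genes on the 3 arrays of each group, with bars for the mean ± SD; every panel spans 1.9 log2 units. In RPL36, RPL12, RPS15 and RPS27 both RhoH groups lie above GFP, in RPL39 uninduced RhoH lies above both other groups, and in RPS27L and RPL3L the groups overlap.

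Between induced and uninduced RhoH, which asks what 4-OHT did to cells with the RhoH construct, no ribosomal protein gene passed limma's test. Of all named genes 3.02% were called higher and 0.751% lower, and of the brightest 25% of them 1.87% were called lower. At an unadjusted p under 0.05, 0 of the 50 were higher and 10 lower (at that level 5.89% of all named genes were lower, and 1268 of 14778 were higher). After another quantile normalization 2 of the 50 were called, both lower, and no other alternative called any. The differences were small and mostly below 0: the median was -0.10, or 0.931-fold, and 45 of the 50 genes were below 0, against 51.1% of all named genes. In 16 genes the 3 induced RhoH arrays lay below the 3 uninduced ones, against 5.64% of all named genes, and in no gene above them.

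The lowest values in this comparison were those of RPS26 (-0.56, adjusted p = 0.245), RPL39 (-0.45, 0.102) and RPL32 (-0.39, 0.402). Only RPL39 among these had no overlap between the groups. RPL9, a large subunit protein, had the next lowest difference, and its signals were 8.86, 8.89 and 8.93 in uninduced RhoH, 8.40, 8.67 and 8.69 in induced RhoH and 8.49, 8.49 and 8.42 in GFP. Its uninduced RhoH arrays were above all others, with -0.31 between induced and uninduced RhoH (adjusted p = 0.122) and 0.43 between uninduced RhoH and GFP (adjusted p = 0.0114). The highest differences were those of RPS27L (0.06), RPS27 (0.05) and RPS16 (0.03), none of which passed the test.

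The order of the 3 group means was the same in most genes. In 39 of the 50 the mean was highest in uninduced RhoH, intermediate in induced RhoH and lowest in GFP. In 6 genes induced RhoH was lowest, and in 5 it was highest. Averaged over the 50 genes, the log2 signal of the arrays was 8.81, 8.86 and 8.87 in uninduced RhoH, 8.59, 8.69 and 8.83 in induced RhoH and 8.51, 8.53 and 8.52 in GFP. The induced RhoH arrays filled the gap between the other groups, and replicate 3 of that group reached the level of uninduced RhoH while replicate 1 was close to GFP. Of the 50 genes, 15 had their lowest signal of all 9 arrays on induced RhoH replicate 1, 16 on GFP replicate 1, 11 on GFP replicate 2 and 6 on GFP replicate 3. On induced RhoH replicate 1 the median deviation from a gene's mean was -0.17 among the dimmer 25 genes and 0.01 among the brighter 25.

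The replicate spread differed between groups. The median SD of the class was 0.078 in uninduced RhoH, 0.126 in induced RhoH and 0.060 in GFP, against 0.132, 0.161 and 0.072 for all named genes. The widest single values were those of RPS26 in induced RhoH (SD 0.46) and of RPS15A, a small subunit protein, in uninduced RhoH (0.34) and GFP (0.20). RPS15A read 7.10, 7.66 and 7.72 in uninduced RhoH, 7.02, 7.38 and 7.84 in induced RhoH and 7.08, 7.48 and 7.31 in GFP. In each of the 3 groups its lowest value was that of replicate 1, and the groups overlapped throughout (0.21 between uninduced RhoH and GFP, adjusted p = 0.603).

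Of the 50 genes, 2 had another probe set. The other set of RPL41 was dimmer, at 8.49 in uninduced RhoH, 8.20 in induced RhoH and 8.25 in GFP, and it put induced RhoH below GFP (-0.05) where the brighter set put it above (0.18). Between uninduced RhoH and GFP its sets gave 0.24 and 0.26. The sets of RPS18 gave 0.30 and 0.28.

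Ribosomal protein genes have many processed pseudogenes of nearly the same sequence, and a probe set can take signal from a copy. The arrays name 25 ribosomal protein pseudogenes, and between uninduced RhoH and GFP 4 of them were called higher and 1 lower, with a median difference of 0.01. RPL13AP20 read 12.28, 12.22 and 12.35 in uninduced RhoH, 12.38, 12.26 and 12.29 in induced RhoH and 11.96, 11.88 and 11.86 in GFP. Its GFP arrays were below all others (0.38 between uninduced RhoH and GFP, adjusted p = 0.00911). RPL21P28 (0.42, 0.0192), RPL29P2 (0.52, 0.0441) and RPS7P5 (0.40, 0.047) were also higher. RPL13P5 went the other way, at 6.15, 6.80 and 6.73 in uninduced RhoH and 7.63, 8.01 and 7.70 in GFP (-1.22, adjusted p = 0.00104). Which of these signals come from the parent genes cannot be told from the deposited values, and the same limit applies to single values of the 50 genes.

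Other parts of the translation machinery are given for comparison, from lists written with earlier results of these data known; of all named genes 6.01% were called higher and 9.27% lower between uninduced RhoH and GFP. The proteins of the mitochondrial ribosome are made from nuclear genes, and between uninduced RhoH and GFP 23 of the 73 measured were called higher and 0 lower (median 0.32). Factors that assemble the ribosome in the nucleolus gave 12 of 37 higher and 0 lower (median 0.35), among them BOP1 (1.08, adjusted p = 0.000847) and RRP12 (0.73, 0.0187). The host genes of small nucleolar RNAs, which guide the modification of ribosomal RNA and whose own transcripts carry TOP tracts, gave 7 of 8 higher (median 0.75), among them SNHG15 (1.03, 0.00142), SNHG8 (0.91, 0.000733) and GAS5 (0.66, 0.00314). Elongation factors and other genes with TOP mRNAs gave 2 of 11 higher, HNRNPA1 (0.44, 0.032) and BTF3 (0.28, 0.0435), and 1 lower, VIM (-0.51, 0.0224). Over the alternatives 0 to 5 genes of this list were higher and 0 to 1 lower, and BTF3 was called in 9 of 19. None of the 7 initiation factors measured passed limma's test, 1 being higher at an unadjusted p under 0.05 and in at most 1 call under an alternative. Over the alternatives, the mitochondrial list had 8 to 52 genes called higher, the assembly factors 3 to 31 and the snoRNA hosts 5 to 8.

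Between induced and uninduced RhoH, where none of the 50 genes was called, the assembly factors, the mitochondrial ribosomal proteins and the snoRNA hosts held calls, and the elongation and initiation lists held none (by limma with unadjusted p under 0.05, the elongation list had 1 gene higher with 2 lower and the initiation list 0 higher with 1 lower). Of all named genes 0.751% were called lower and 3.02% higher in this comparison. At an unadjusted p under 0.05, 871 of the 14778 were lower and 1268 higher. Of the assembly factors 6 of 37 were called lower with 4-OHT (median -0.37), for example RRP12 (-0.79, adjusted p = 0.0359), BOP1 (-0.65, 0.0455) and DDX10 (-0.59, 0.0234). The number called lower ran from 0 to 14 over the alternatives. It was 0 with only the 6 arrays compared. It was also 0 without any 1 of the 3 GFP arrays, which enter this comparison only through the shared estimate of the spread. All 37 were below 0, and 22 were lower at an unadjusted p under 0.05. Among the mitochondrial ribosomal proteins 3 of 73 were called lower, including MRPL15 (-0.63, 0.0172) and MRPL48 (-0.42, 0.0154), with 0 to 11 over the alternatives. In that list 64 genes were below 0 and 9 above (median -0.16), and 18 were lower at an unadjusted p under 0.05. GAS5 was the snoRNA host that was called lower (-0.59, 0.0199), with 0 to 3 called in that list over the alternatives. With only the 6 arrays compared, MRPL15, MRPL48 and GAS5 lost their calls. All 8 hosts measured were below 0 (median -0.44), and all 8 were lower at an unadjusted p under 0.05. Between induced RhoH and GFP the assembly factors had a median of -0.01 with none called (3 higher at an unadjusted p under 0.05, at most 1 called under an alternative), and the median of the 50 ribosomal protein genes was 0.18. The difference between the lists was not tested.

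**Figure D5:**
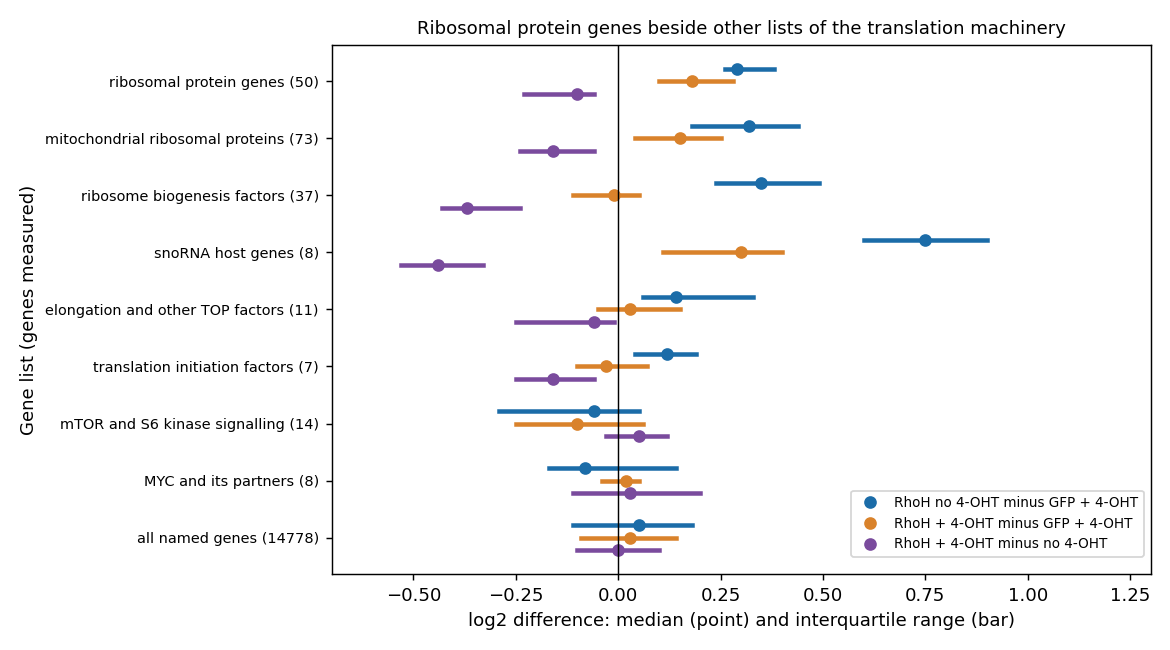
Points are the median log2 difference of each gene list in the 3 comparisons and bars span the interquartile range of its genes, with the number of genes measured in brackets. The ribosomal protein genes have medians of 0.29, 0.18 and -0.10, the assembly factors 0.35, -0.01 and -0.37, and all named genes lie near 0.

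Regulators of ribosome production were read from the same arrays. MYC followed the order seen in most ribosomal protein genes with larger steps: 11.64, 11.67 and 11.73 in uninduced RhoH, 10.62, 10.83 and 11.05 in induced RhoH, and 10.17, 9.97 and 10.08 in GFP. The 3 groups did not overlap, and all 3 differences passed the test (1.61 between uninduced RhoH and GFP, adjusted p = 9.37e-06; 0.76 between induced RhoH and GFP, 0.00469; -0.85 between induced and uninduced RhoH, 0.00287). MXD1, which competes with MYC for its partner MAX, was lower in uninduced RhoH than in GFP (-0.71, adjusted p = 0.00024). Of the 8 genes measured in the list of MYC and its partners, MYC was thus 1 called higher and MXD1 1 called lower (12.5% each). The other 6 were not called in this comparison, and of all 8 genes 3 were above 0 and 5 below. In the list of mTOR and S6 kinase signalling, 1 of 14 genes was higher in uninduced RhoH than in GFP (7.14%, near the 6.01% of all named genes) and 4 were lower (28.6%, against 9.27%). The higher one was EIF4EBP1 (1.11, 0.000128), a repressor of cap-dependent translation that mTOR switches off. The lower ones were SESN1 (-1.15, 8.53e-06), which restrains mTOR, PDCD4 (-0.95, 0.00768), a translation inhibitor, RRAGC (-0.78, 0.00117), a GTPase that brings mTOR to the lysosome, and MTOR itself (-0.33, 0.0256). Of 7 genes of the p53 response, 3 were lower, among them SESN1, which both lists hold, and TP53INP1 (-2.92, 3.91e-06). Of the 3 genes of RNA polymerase I measured, POLR1H was higher (0.87, 0.00513). Whether any of these genes has a part in the differences of the ribosomal protein genes was not tested.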

How the data were processed

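The deposited table holds log2 values for 43550 probe sets on 9 arrays. Per the submitters' processing notes the authors used Affymetrix Power Tools, RMA and limma (the sources used here give neither versions nor a genome build). This background correction, quantile normalization and summary per probe set compress differences at low signal. The number of arrays limits the precision. Of the probe sets, 15659 carried 1 gene symbol in the platform annotation, all matched in RefSeq (GRCh38.p14), and 27891 were unnamed. The probe set with the highest mean was kept per gene, giving 14778 genes.

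Groups were compared with limma 3.58.1 in R 4.3.3: 3 group means over all 9 arrays, default moderation (6 residual and 3.86 prior degrees of freedom), Benjamini-Hochberg over all genes, calls at adjusted p under 0.05. The fit was tested on simulated data. Other normalizations, filters, probe set rules, array sets, array weights, variance priors, a replicate block and leaving out arrays were tried, 19 alternatives in all.

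The members, lists and tests were chosen with earlier results of these data known. Genes named were those called (the 6 highest and 6 lowest where over 12 were), the 3 highest and 3 lowest differences, the 3 brightest and 3 dimmest, paralogs with parents, genes with several probe sets, and at most 4 called genes per related list and comparison. Other members (such as RPS6, RPS14, RPS19, RPL11, RPS15A and RPS9), the list gene MTOR and the pseudogenes were named after their values were seen. Of 248 list symbols outside the class and the cell type markers, 168 were measured.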

Additional observations from a re-analysis of the deposited data

How the results depend on the processing

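The counts and medians of the ribosomal protein genes were recomputed under 19 alternatives, and no alternative called any of the 50 lower than GFP. Between uninduced RhoH and GFP the 24 calls became 43 with array weights and 12 with all probe sets tested, and 7 to 32 without 1 array. The weights were lowest for uninduced RhoH replicate 1 (0.267) and induced RhoH replicates 3 (0.275) and 1 (0.334). The median of 0.29 became 0.34 after another quantile normalization and 0.32 with array weights or without both RhoH replicate 1 arrays, with 0.27 to 0.32 without 1 array. Between induced RhoH and GFP the 5 calls became 8 after another quantile normalization, 10 with a trended, robust variance prior, 3 with only the 6 arrays compared and 3 with all probe sets tested, and 2 to 6 without 1 array. Between induced and uninduced RhoH the 0 calls became 2 after another quantile normalization. The cause of these shifts was not tested. Of the differences that the rule names, those whose sign turned were RPS27 in induced minus uninduced RhoH at -0.02 with array weights, RPL32 in induced RhoH minus GFP at 0.16 without both RhoH replicate 1 arrays, and, without 1 array, RPS16 (-0.01 to 0.11) and RPS27L (-0.14 to 0.23) in induced minus uninduced RhoH, RPL32 (-0.26 to 0.16) in induced RhoH minus GFP, and RPL28 (-0.03 to 0.17), RPL3L (-0.07 to 0.08) and RPS27L (-0.10 to 0.01) in uninduced RhoH minus GFP.

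With the replicate number as a block, 24 genes were called between uninduced RhoH and GFP, 4 between induced RhoH and GFP and 0 between the RhoH groups. Same-numbered arrays deviated together with r of 0.543, 0.368 and 0.065 between the RhoH groups, 0.131, 0.153 and -0.026 between uninduced RhoH and GFP, and 0.101, 0.154 and 0.008 between induced RhoH and GFP, so the numbers were not taken to pair the arrays; not every array correlated best with its own number.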
